A study of Mus musculus with 6 samples.

Results

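Genes of the endoplasmic reticulum (ER) that fold, translocate and export secreted proteins, or that respond to unfolded protein, were compared between lungs given bleomycin and lungs given saline. The 43 genes were chosen by function, with earlier results of these data known. They were 15 ER chaperones and folding factors, 19 genes of the secretory machinery and 9 stress genes. Stress genes here are the sensors, transcription factors and degradation genes of the unfolded protein response. A probe set with a single gene symbol was found for 42 of the 43 genes, among 12393 genes read on the array, and the translocation channel gene Sec61g was not analysed. No filter on low values was applied, so all 42 entered the test.

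The study addressed which genes the lung expresses differently once fibrosis has set in after bleomycin. This chemotherapy drug breaks DNA, and its instillation into mouse airways is a common model of lung fibrosis. The bleomycin group held 3 mice given 1 mg/kg in 50 µl of saline, and the control group held 3 mice given saline. All 6 were wild-type male C57BL/6J mice of 8 to 10 weeks according to the labels, and lungs were taken at day 14. The design text names the oropharyngeal route and the source labels the intratracheal one, so the route is not settled here. RNA came from whole lung without the trachea and major airways, with one Affymetrix MOE430A array per mouse, so every level is a mixture over all cell types. Letters name the arrays, with A to C for saline and D to F for bleomycin.

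Array medians lay between 7.37 and 7.41 on the log2 scale. Saline B went against its male label: its level of Xist, the transcript of the inactive X chromosome, was 11.40 against 7.23 to 7.88 on the other 5 arrays, and its level of the Y-linked gene Eif2s3y was 4.05 against 7.23 to 8.02. Bleomycin D stood farthest from saline on the first principal component (44.3, against 12.9 and 19.8 for E and F and -28.6 to -21.4 for saline). The 3-prime minus 5-prime difference of the actin control probe sets, a sign of RNA quality, was 1.14 to 1.71 on saline and 1.04 to 1.27 on bleomycin arrays, and that of the Gapdh probe sets 0.88 to 1.46 and 0.81 to 1.10. Several of the results that rest on B or D are also given without both.

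Secreted and membrane proteins enter the ER through the Sec61 channel, lose their signal peptide, receive N-glycans and are folded by chaperones before they leave in vesicles for the Golgi. When unfolded protein builds up, the sensors Ern1 (IRE1), Eif2ak3 (PERK) and Atf6 start the unfolded protein response, which raises chaperones, slows translation and sends misfolded proteins to degradation. In a fibrotic lung the ER of cells that make collagen carries a large load of matrix protein, and ER stress has been studied in the lung epithelium of fibrosis patients.

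The promoters of many chaperone genes hold short elements bound by the factors of this response. RefSeq promoters of GRCm38.p6, from 250 bases before to 50 bases after the start site, were given for 36 of the 43 genes. They were searched on both strands for the ER stress element (CCAAT, then 9 bases, then CCACG), the second ER stress element (ATTGG, then 1 base, then CCACG) and the unfolded protein response element (TGACG followed directly by TGG). The sequences below are those of the 3 genes that passed the test, of Hspa5 and Creld2 as chaperones that did not, and of 2 stress genes. Capitals mark the element, 20 bases are shown on each side (9 for Dnajb11, whose element lies past the start site), and each runs 5′ to 3′ on the strand of its gene. In Creld2 and Kdelr3 the element lies on the opposite strand, so its reverse complement is in capitals.
Pdia6, chr12:17266471-17266529, plus strand: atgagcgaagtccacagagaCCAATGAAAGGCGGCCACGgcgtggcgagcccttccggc
Dnajb11, chr16:22857843-22857871, plus strand: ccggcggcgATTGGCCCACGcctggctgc
Kdelr3, chr15:79516358-79516405, plus strand: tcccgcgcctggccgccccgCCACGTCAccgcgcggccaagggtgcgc
Hspa5, chr2:34772005-34772063, plus strand: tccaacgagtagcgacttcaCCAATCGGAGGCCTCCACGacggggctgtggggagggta
Creld2, chr15:88819500-88819558, plus strand: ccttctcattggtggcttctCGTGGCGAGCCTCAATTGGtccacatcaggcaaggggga
Syvn1, chr19:6046512-6046570, plus strand: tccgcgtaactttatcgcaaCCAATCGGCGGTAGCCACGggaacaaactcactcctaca
Herpud1, chr8:94386357-94386407, plus strand: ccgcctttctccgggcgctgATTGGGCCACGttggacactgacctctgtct

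The ER stress element was found in 8 genes of the module: Calr, Canx, Creld2, Dnajc3, Hsp90b1, Hspa5, Pdia6 and Syvn1. It occurred in 39 of all 32851 promoters (0.119%). Only exact matches of the elements were counted, here and below. The second element was found in Dnajb11 and Herpud1 and in 12 promoters in all (0.0365%), and the unfolded protein response element in Kdelr3 and in 222 promoters (0.676%). The 5-base core CCACG, which is part of all 3 elements on one strand or the other, was in 26 of the 36 genes and in 32.8% of all promoters. Several of these genes are those in which the elements were first described, so the matches are a description, and a match shows neither binding nor use in the lung.

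In bleomycin lungs 3 of the 42 genes rose past the threshold of limma, an adjusted p under 0.05 over all probe sets, and 0 fell. These were the disulfide isomerase Pdia6, the Hsp40 co-chaperone Dnajb11 and the KDEL receptor Kdelr3, by 1.50-fold to 1.75-fold. Over all genes read, 3.7% were called higher and 1.9% lower, so the 7.14% of the module called higher rests on 3 genes. At an unadjusted p under 0.05, 15 of 42 genes were higher and 2 lower, against 11.7% higher and 11% lower over all genes. The differences of the 42 genes had a median of 0.24 log2 units, against -0.04 for all 12393 genes. Of the 42, 30 (71.4%) were above 0, against 43.0% of all genes. When one array was left out, 2 genes were called higher without C or E, 1 without D and 0 without A, B or F, and 1 gene, Herpud1, was called lower without C. Calls over all genes fell too, to between 1.32% higher without A and 3.11% without E, so these counts are near the share of all genes. With array weights 6 genes were called higher (4.83% of all genes), and with each array centred on ribosomal protein genes 1 was (2.59% of all genes). The array weights ran from 0.50 for bleomycin D to 2.37 for bleomycin F. In RNA from whole lung, more cells of a type and more RNA per cell cannot be told apart.

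The classes are described side by side, and the difference between them was not tested. Of the 15 chaperones 2 were called higher, 13 differences were positive and the median was 0.46. Of 18 genes of the secretory machinery 1 was called higher, 14 differences were positive and the median was 0.24. Of the 9 stress genes 0 were called by limma in either direction. At an unadjusted p under 0.05, 1 stress gene was higher (Edem1) and 2 were lower (Herpud1 and Ern1), and the median was -0.05. That sign is not firm: the stress gene median was 0.06 with array weights, 0.02 without bleomycin D and 0.01 without saline B and bleomycin D. On 14 of the 42 genes all bleomycin arrays lay above all saline arrays (13.3% of all genes), and on 3 all lay below (14.6% of all genes): Dnajb9, Herpud1 and Ern1.

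**Figure D1:**
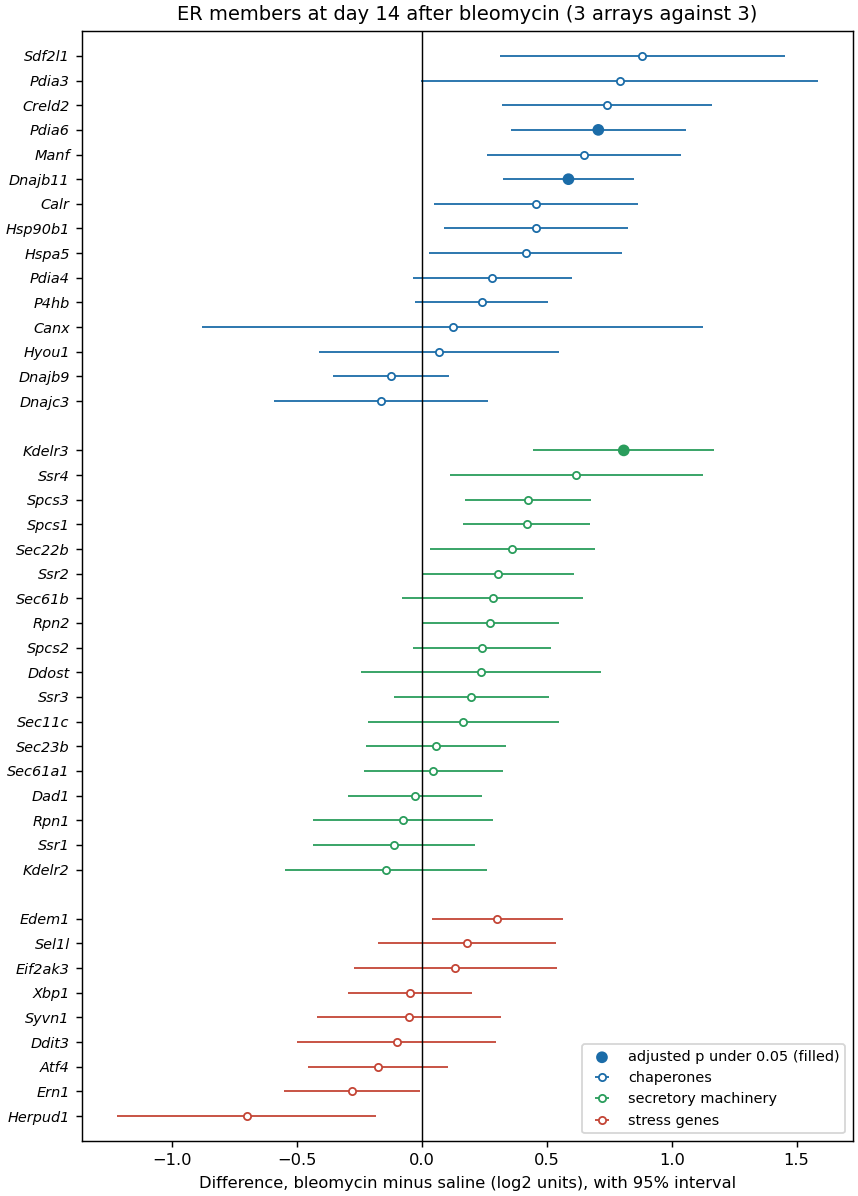
Difference between bleomycin and saline in log2 units (horizontal axis) for each of the 42 genes, grouped by class; points are the limma estimate, lines its 95% interval, and filled points passed an adjusted p of 0.05 (n = 3 arrays a group). The 3 filled points are Pdia6, Dnajb11 and Kdelr3; stress genes lie on both sides of 0, from -0.70 for Herpud1 to 0.30 for Edem1.

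The Hsp70 system of the ER centres on Hspa5 (BiP), the chaperone that binds exposed stretches of unfolded protein and keeps the stress sensors inactive. Hspa5 stood at 12.23, 12.31 and 12.73 on the saline arrays and at 12.69, 12.73 and 13.10 after bleomycin. Bleomycin F was highest, and D and E lay at the level of saline C, so the groups overlapped. The difference was 0.42 ± 0.17 log2 units (SE; 95% interval 0.03 to 0.80) and did not pass limma's adjustment (adjusted p = 0.200).

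Dnajb11 (ERdj3), which hands unfolded clients to BiP, stood at 9.60, 9.36 and 9.38 on the saline arrays and at 9.98, 9.97 and 10.15 after bleomycin. The groups did not overlap. Dnajb11 rose 1.50-fold (95% interval 1.25 to 1.80), a difference of 0.59 ± 0.12 (limma, adjusted p = 0.0292). The call rests on all 6 arrays: without any one of them the difference stayed between 0.53 and 0.66, and limma's adjusted p lay between 0.0514 and 0.111. It did not pass without B and D together (0.57, adjusted p = 0.0906) or with ribosomal protein centring (0.48; limma, adjusted p = 0.101).

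Sdf2l1, a partner of the same BiP complex, had the largest difference of the module. It stood at 6.29, 6.51 and 7.18 on the saline arrays and at 7.20, 7.53 and 7.91 after bleomycin. All bleomycin arrays were above saline, but D exceeded saline C by little, and the spread within groups was wide. The difference of 0.88 ± 0.25 missed the threshold (limma, adjusted p = 0.0869) and passed it without saline C (1.14, adjusted p = 0.0394). The other members of the Hsp70 system were near 0 (limma, adjusted p from 0.525 to 0.882). Hyou1, an Hsp70 relative that exchanges the nucleotide of BiP, was at 0.07 ± 0.21. The co-chaperones Dnajb9 and Dnajc3 were at -0.12 ± 0.10 and -0.16 ± 0.19. The dimmer probe sets of Dnajc3 were all positive, at 0.04 to 0.31, and none passed (limma, adjusted p from 0.213 to 0.952).

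Disulfide isomerases form and rearrange the disulfide bonds of folding proteins. Pdia6 stood at 10.08, 10.09 and 10.51 on the saline arrays and at 11.08, 10.73 and 10.99 after bleomycin. The groups did not overlap, with D highest. Pdia6 rose 1.63-fold (95% interval 1.28 to 2.08), a difference of 0.71 ± 0.15 (limma, adjusted p = 0.0391). The call held without saline C or without bleomycin E and was lost without A, B, D or F, at 0.63 to 0.68 with adjusted p from 0.0990 to 0.124. Without B and D together it was 0.57 (limma, adjusted p = 0.155). It was also lost with ribosomal protein centring (0.60) and with repeated quantile normalization (0.64; limma, adjusted p = 0.0896 and 0.0653).

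A second, much dimmer Pdia6 probe set, at 5.83 to 6.49 on saline and 5.52 to 6.09 on bleomycin arrays, differed by -0.34 ± 0.20 (limma, adjusted p = 0.371). With both averaged Pdia6 was at 0.18 (limma, adjusted p = 0.503). The rise therefore belongs to the brighter probe set.

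Pdia3, the isomerase that works with the lectin chaperones on glycoproteins, had a larger difference but a wider spread. It stood at 11.06, 9.97 and 11.18 on the saline arrays and at 10.95, 11.71 and 11.94 after bleomycin. Saline B was 1.09 log2 units below the next lowest saline array, and bleomycin D lay below saline A and C. The difference was 0.79 ± 0.35 (limma, adjusted p = 0.234). Without saline B alone it was 0.41 (limma, adjusted p = 0.460), without bleomycin D alone 1.08 (adjusted p = 0.153), and without both 0.70, which passed (2 arrays against 2, adjusted p = 0.0451). The size of the Pdia3 difference thus depended on these 2 arrays. Pdia4 and P4hb, which is also the beta subunit of the collagen prolyl 4-hydroxylase, were at 0.28 ± 0.14 and 0.24 ± 0.12 and did not pass (limma, adjusted p = 0.288 and 0.285).

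Calr and Canx are the lectin chaperones calreticulin and calnexin, which hold glycoproteins until they are folded. Calr stood at 11.71, 11.78 and 12.26 on the saline arrays and at 12.17, 12.31 and 12.64 after bleomycin. Only saline C overlapped the bleomycin range, and the difference of 0.46 ± 0.18 did not pass (limma, adjusted p = 0.185). The other 2 probe sets of Calr gave 0.45 and 0.57. Canx stood at 10.87, 9.96 and 11.17 on saline and at 9.77, 11.27 and 11.33 on bleomycin arrays: B and D were low together, and the difference was 0.12 ± 0.44 (limma, adjusted p = 0.901). Without B and D it was 0.28 (limma, adjusted p = 0.395).

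Hsp90b1 (GRP94), the Hsp90 of the ER, stood at 10.29, 10.64 and 10.23 on the saline arrays and at 10.68, 10.73 and 11.13 after bleomycin. The groups did not overlap, though saline B came close to bleomycin D. The difference was 0.46 ± 0.16 and did not pass (limma, adjusted p = 0.152). Without saline B and bleomycin D it was 0.67 and did not pass either (limma, adjusted p = 0.0782).

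Creld2 and Manf are ER proteins that can be secreted under stress and are used as markers of the unfolded protein response. Creld2 stood at 8.86, 8.65 and 9.12 on the saline arrays and at 9.47, 9.39 and 9.98 after bleomycin. Manf stood at 10.10, 9.98 and 10.15 on saline and at 10.55, 10.50 and 11.12 on bleomycin arrays. In both genes all bleomycin arrays were above all saline arrays and F was highest. The differences of 0.74 ± 0.18 for Creld2 and 0.65 ± 0.17 for Manf missed the threshold (limma, adjusted p = 0.0606 and 0.0710). Both passed with array weights (0.82 and 0.77, limma, adjusted p = 0.0436 and 0.0451). Those weights were largest for bleomycin F (2.37), the highest array in both genes.

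**Figure D2:**
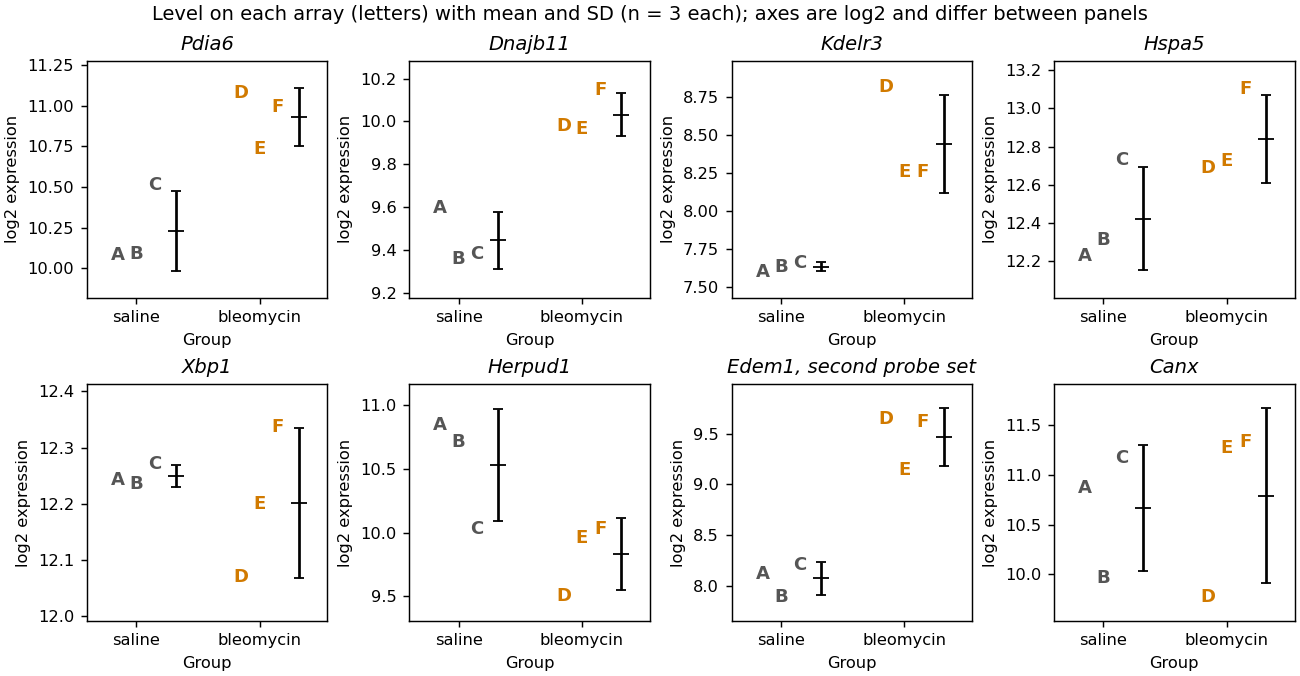
Log2 level on each array (vertical axis, a different range in each panel) for 7 genes and a second probe set of Edem1; letters are arrays, and the bar beside each group is its mean and SD (n = 3). Pdia6, Dnajb11, Kdelr3 and the second Edem1 probe set are higher on all bleomycin arrays than on any saline array. Herpud1 is lower on all bleomycin arrays, but bleomycin F is only just below saline C. Canx is low on saline B (9.96) and bleomycin D (9.77) alike.

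Of the secretory machinery, the KDEL receptors return escaped chaperones from the Golgi to the ER. Kdelr3 stood at 7.60, 7.64 and 7.66 on the saline arrays and at 8.81, 8.25 and 8.26 after bleomycin. The saline arrays were close to each other and all bleomycin arrays were above them, D by the most. Kdelr3 rose 1.75-fold (95% interval 1.36 to 2.25), a difference of 0.81 ± 0.16 (limma, adjusted p = 0.0289). The call held without D (0.62, adjusted p = 0.0295), without E, and without B and D together (0.62, adjusted p = 0.0451); without A, B, C or F the difference was 0.79 to 0.90 with adjusted p from 0.0561 to 0.0951. Its relative Kdelr2 was at -0.14 ± 0.18 (limma, adjusted p = 0.690), and the difference between the 2 receptors was not tested. A second, dimmer Kdelr2 probe set had the opposite sign, at 0.20 ± 0.11 with all bleomycin arrays above saline (limma, adjusted p = 0.326).

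The signal peptidase cleaves the signal peptide inside the ER, and all 4 of its genes in the module had positive differences, with a median of 0.33. Spcs1 stood at 11.17, 11.12 and 11.01 on the saline arrays and at 11.64, 11.53 and 11.40 after bleomycin. Spcs3 stood at 10.27, 10.36 and 10.27 on saline and at 10.88, 10.63 and 10.66 on bleomycin arrays. The groups did not overlap in either gene. Both differences were 0.42 ± 0.11 and narrowly missed the threshold (limma, adjusted p = 0.0730 and 0.0697). Spcs2 (0.24 ± 0.12) had groups that did not overlap either, and Sec11c, a catalytic subunit, had groups that overlapped (0.17 ± 0.17; limma, adjusted p = 0.299 and 0.611). Sec11c was at 0.03 without saline A and at 0.31 without bleomycin D. The 2 dimmer probe sets of Spcs1 gave 0.25 and -0.34.

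The TRAP complex (Ssr1 to Ssr4) sits beside the Sec61 channel and helps some signal peptides to insert. Ssr4 stood at 9.79, 10.41 and 9.65 on the saline arrays and at 10.93, 10.37 and 10.41 after bleomycin. Saline B was as high as bleomycin E and F, and the difference of 0.62 ± 0.22 did not pass (limma, adjusted p = 0.157). Without B and D it was 0.67 and passed (limma, adjusted p = 0.0411), but the other 2 probe sets of Ssr4 were negative and the average of all 3 was 0.07. The other subunits were at -0.11 ± 0.14 for Ssr1, 0.30 ± 0.13 for Ssr2 and 0.20 ± 0.14 for Ssr3 (limma, adjusted p from 0.233 to 0.694).

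The remaining genes of the machinery did not pass, with differences between -0.08 and 0.36. In the channel itself Sec61a1, the pore subunit, was at 0.05 ± 0.12 and Sec61b at 0.28 ± 0.16 (limma, adjusted p = 0.862 and 0.348). That Sec61a1 probe set turned negative with ribosomal protein centring (-0.06) and with repeated quantile normalization (-0.05). Of its 5 dimmer probe sets 4 were at 0.34 to 0.44 and 1 at -0.18, and the mean of all 6 was 0.23 (limma, adjusted p = 0.263). The oligosaccharyltransferase, which transfers the N-glycan, was at -0.08 ± 0.16 for Rpn1, 0.27 ± 0.12 for Rpn2, 0.24 ± 0.21 for Ddost and -0.03 ± 0.12 for Dad1 (limma, adjusted p from 0.235 to 0.917). The other probe sets of Rpn1 were all positive, at 0.01 to 0.30 (limma, adjusted p from 0.280 to 0.983). Ddost was at 0.04 without saline B, at 0.42 without bleomycin D and at 0.22 without both. Sec22b, a SNARE of vesicles between the ER and the Golgi, was at 0.36 ± 0.14 with groups that did not overlap (limma, adjusted p = 0.194). Its second probe set, with similar levels, was at -0.23 ± 0.12, and the mean of both was 0.07. The COPII coat gene Sec23b was at 0.06 ± 0.12 (limma, adjusted p = 0.830).

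Among the stress genes the sensors and transcription factors did not pass in either direction. Xbp1, whose transcript is spliced by activated IRE1, stood at 12.24, 12.23 and 12.27 on the saline arrays and at 12.07, 12.20 and 12.34 after bleomycin. The bleomycin arrays surrounded the saline range, and the difference was -0.05 ± 0.11 with a 95% interval of -0.30 to 0.20. Its other probe sets differed in sign. The next brightest were at 0.29 ± 0.17 and 0.19 ± 0.13, and the dimmest was at -0.21 ± 0.14 (limma, adjusted p from 0.353 to 0.452). The array was not examined for the spliced form, so these are levels of the transcript and not its splicing. Ddit3 (CHOP), a factor of the PERK branch linked to cell death, was at -0.10 ± 0.17 (limma, adjusted p = 0.781). Atf4, which acts above it, was at -0.18 ± 0.12 (limma, adjusted p = 0.446). A second, dimmer Atf4 probe set was at -0.48 ± 0.18 with all bleomycin arrays below saline (limma, adjusted p = 0.176). The dimmest Atf4 probe set was at 0.15 ± 0.22 (limma, adjusted p = 0.737). Ern1 was at -0.28 ± 0.12 with all bleomycin arrays below saline, and Eif2ak3 was at 0.13 ± 0.18 (limma, adjusted p = 0.222 and 0.709).

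Herpud1, an ER membrane protein of the degradation machinery that is raised by several arms of the stress response, had the largest difference below 0. It stood at 10.85, 10.71 and 10.03 on the saline arrays and at 9.51, 9.96 and 10.03 after bleomycin. Saline C and bleomycin F were at the same level after rounding, so the groups were only just apart. The difference of -0.70 ± 0.23 did not pass (limma, adjusted p = 0.123) and passed without saline C (-0.95, adjusted p = 0.0427). Its second probe set was at -0.60 ± 0.22. Herpud1 and Dnajb11 carry the same kind of promoter element and differed in sign.

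The other genes of ER-associated degradation were the ubiquitin ligase Syvn1 (-0.05 ± 0.16), its partner Sel1l (0.18 ± 0.16) and Edem1, which takes misfolded glycoproteins out of the folding cycle (0.30 ± 0.12). None of them passed (limma, adjusted p = 0.882, 0.548 and 0.179). Edem1 was read by its brighter probe set, at 9.21, 9.30 and 9.37 on saline and 9.72, 9.44 and 9.62 on bleomycin arrays.

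The second Edem1 probe set gave the largest difference of any probe set of the module. It stood at 8.12, 7.89 and 8.20 on the saline arrays and at 9.65, 9.14 and 9.62 after bleomycin. The groups were far apart, with a difference of 1.40 ± 0.16 or 2.63-fold (limma, adjusted p = 0.00332), and it passed in all 6 fits that left out one array. The 2 probe sets of Edem1 thus had the same direction and different sizes, and their target positions were not examined.

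Of all 89 probe sets of the 42 genes, 4 (4.49%) were called higher and 0 lower, against 3.29% called higher of all 22626 probe sets. Several probe sets were present for 24 genes. In 15 of these the probe sets had differences of both signs, in 7 all were positive and in 2, Ern1 and Herpud1, all were negative. For Hspa5 the second probe set differed by more than the one read (0.76 ± 0.20; limma, adjusted p = 0.0667).

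**Figure D3:**
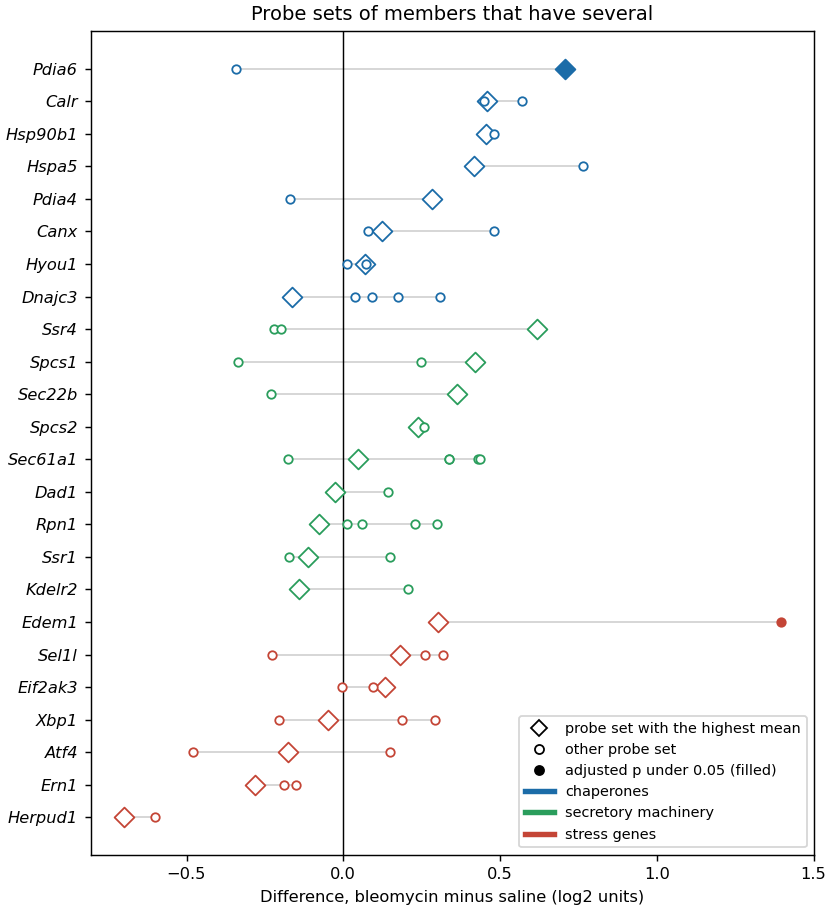
Difference between bleomycin and saline in log2 units (horizontal axis) for every probe set of the 24 genes that have several; diamonds mark the probe set with the highest mean, which was the one read, circles the others, and filled symbols passed an adjusted p of 0.05. The 2 filled symbols are the brighter Pdia6 and the second Edem1 probe set, and lines that cross 0 mark the 15 genes whose probe sets differ in sign.

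The classes also differed in which array was high. Relative to the saline mean of each gene, the chaperones averaged -0.01, -0.18 and 0.19 on saline A, B and C and 0.16, 0.39 and 0.67 on bleomycin D, E and F. By this mean bleomycin D lay within the saline range for the class. By the class median it lay just above that range (0.26, against 0.25 on saline C). The highest array was F for 11 of the 15 chaperones. The secretory machinery averaged 0.05, -0.05 and -0.003 on the saline arrays and 0.25, 0.20 and 0.23 after bleomycin, so that the bleomycin arrays were close to each other, and D was the highest array for 8 of 18 genes. The stress genes averaged 0.12, -0.05 and -0.07 on saline and -0.16, -0.13 and 0.04 on bleomycin arrays, and the groups overlapped.

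**Figure D4:**
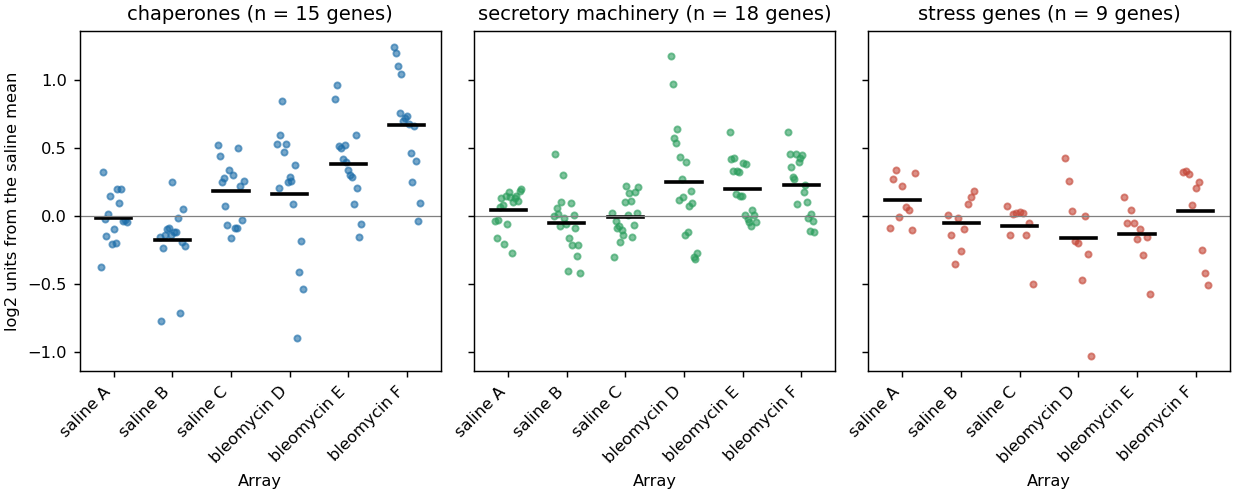
Log2 difference of each gene from its own saline mean (vertical axis) on each array, in one panel per class; points are genes and the black line is the mean over the genes of the class. The secretory machinery has its 3 bleomycin means between 0.20 and 0.25, the chaperones spread from 0.16 on D to 0.67 on F, and the stress genes overlap, with a class median whose sign turns without bleomycin D.

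Set side by side, the median of the secretory machinery was 0.29 log2 units above that of the stress genes, and 0.23 to 0.34 above it when one array was left out. With array weights the gap was 0.17. The gap depends on where the chaperones are placed, since they are both folding machinery and targets of the stress response: counted with the stress genes, they reduced it to 0.03. No test was made of this gap.

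On 10 of the 42 genes (23.8%) both saline B and bleomycin D were below the other 4 arrays, against 972 of all 12393 genes (7.84%), and on 0 of 42 were both above the others, against 1051 genes (8.48%). This pattern was chosen after the values were seen. The genes were Canx, Pdia3, Dnajc3, Hyou1, Ssr1, Kdelr2, Ddost, Rpn1, Ddit3 and Syvn1. Without B and D the count called higher was again 3 of 42 (2.7% of all genes), and these were Kdelr3, Pdia3 and Ssr4 (limma, 2 arrays against 2). Saline B and bleomycin D had the 2 lowest Gapdh 3-prime minus 5-prime differences (0.88 and 0.81, against 0.98 to 1.46) and the 2 highest median levels of ribosomal protein genes (12.19 and 12.18, against 11.96 to 12.16). The part of these in the pattern was not tested.

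**Figure D5:**
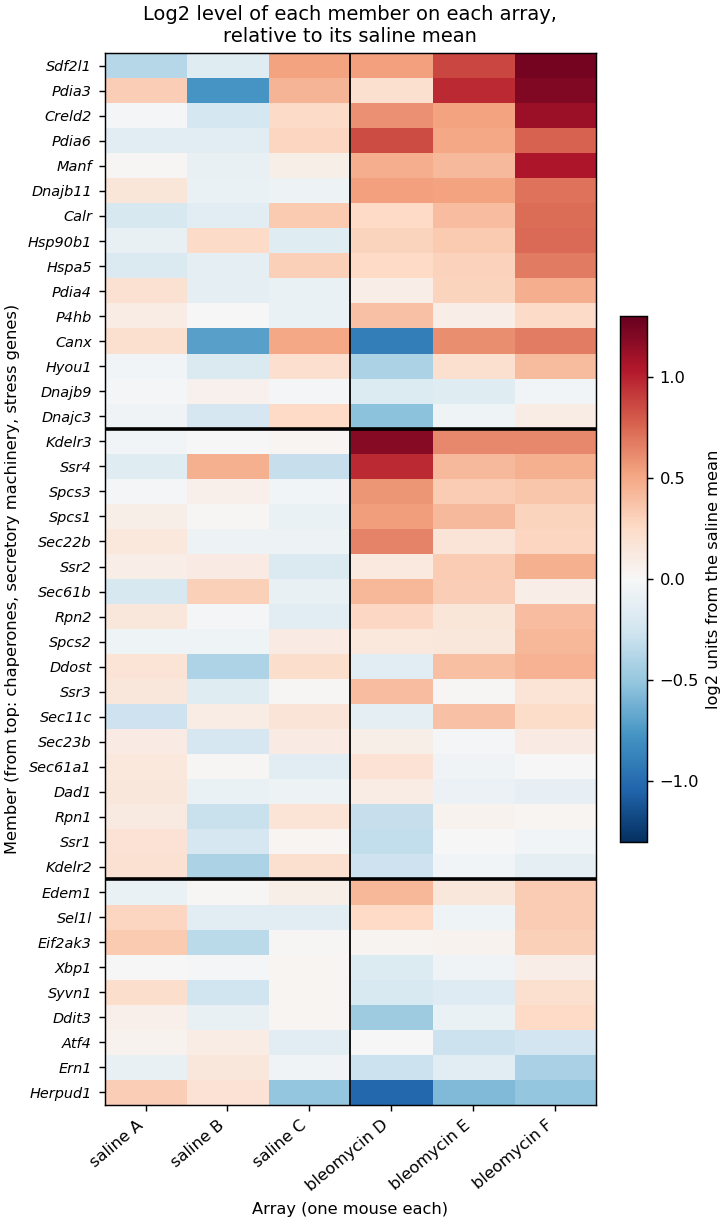
Level of each of the 42 genes (rows) on each array (columns) in log2 units from the saline mean of the gene; red is above and blue below, and lines separate the classes and the groups. Canx and Pdia3 show the low values on saline B, Canx that on bleomycin D, and bleomycin F is the highest array for 18 of the 42 genes.

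At an adjusted p under 0.1, 8 of the 42 genes were higher (6.2% of all genes): the 3 called genes with Sdf2l1, Creld2, Manf, Spcs1 and Spcs3. Under 0.01, 0 were higher by limma (1.15% of all genes). Of the 11 genes with one of the 3 promoter elements, 3 were called higher, 8 had positive differences and the median was 0.46. Of the 24 measured genes whose promoter held no exact match, 0 were called by limma, 16 were positive and the median was 0.22. The 7 genes without a promoter in the table had a median of 0.17. The difference between these counts was not tested, and 8 of the 11 genes with an element are chaperones.

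Genes of the same pathway outside the module, from 5 lists, gave 1 called higher of 126 (0.794%) and 0 lower. Their median was 0.15, and 88 differences were positive (69.8%). At an unadjusted p under 0.05, 26 (20.6%) were higher and 1 lower, against 11.7% higher and 11% lower over all genes. The lower gene was the sensor Atf6, at -0.30 ± 0.11 with all bleomycin arrays below saline (limma, adjusted p = 0.169). Other folding genes had a median of 0.20 over 32 genes, other ER to Golgi transport genes 0.18 over 30, and other translocation and glycan transfer genes 0.02 over 18. Other degradation genes had a median of 0.07 over 20. The called gene was Atf3, a transcription factor of the integrated stress response, among 26 other genes of the unfolded protein and integrated stress responses (median 0.09). Atf3 stood at 7.85, 7.84 and 7.56 on the saline arrays and at 8.89, 8.44 and 8.66 after bleomycin, a rise of 0.92 ± 0.15 (limma, adjusted p = 0.0130). Among 18 chaperones of the cytosol and mitochondria, 1 was called higher, the mitochondrial co-chaperonin Hspe1 (0.46 ± 0.11, limma, adjusted p = 0.0484). Their median was 0.20, and 16 differences were positive (88.9%).

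Most markers of fibroblasts and macrophages were higher after bleomycin, with median differences of 1.12 and 1.54. Of 11 measured markers of matrix-producing fibroblasts, 7 were called higher (3.7% of all genes), led by Col1a1 (2.10), Fn1 (1.93) and Col5a2 (1.69). The 11 differences ran from -0.18 to 2.10, with 10 positive and 1 negative. The mean level of these markers was 10.41 to 10.81 on saline and 11.30 to 11.91 on bleomycin arrays. Of 10 macrophage markers 7 were called higher, led by Mmp12 (5.23), C1qb (3.42) and Gpnmb (3.10), with mean levels of 8.96 to 9.19 and 10.95 to 11.03. All 10 differences were positive, but they ran down to 0.03. Among 10 markers of plasma and B cells, which secrete antibody and are rich in ER, 1 was called higher: Jchain, by 2.37. At an unadjusted p under 0.05 (limma), Jchain was the only marker higher and Prdm1 (-0.57) the only one lower. In all, 6 differences were positive and 4 negative. The mean levels of these markers, 8.01 to 8.43 and 8.30 to 8.74, overlapped between the groups. Of 8 type 2 epithelial markers 0 were called (limma; at an unadjusted p under 0.05, 0 higher and 1 lower), with mean levels of 12.24 to 12.33 and 11.82 to 12.28. Of 8 airway secretory, 5 type 1 and 4 endothelial markers 1 each was called lower: Cyp2f2 (-0.66), Hopx (-0.44) and Kdr (-0.86). Values of this kind have no true zero, so no marker is listed at 0. The part of these markers in the differences of the ER genes was not tested.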

How the data were processed

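The authors deposited log2 expression values per probe set for 6 arrays, made by RMA with quantile normalization per the submitters' processing notes. For the software version and background step, nothing was given in the sources used here. That the base is 2 was judged from the range of the values, the largest being 14.42. Of 22690 probe sets, 64 controls were left out and 22626 were tested with limma 3.58.1 under R 4.3.3 (lmFit, eBayes, no covariates, two-sided, Benjamini-Hochberg adjustment over all tested, threshold 0.05), so an adjusted p printed for a gene is limma's. Errors are moderated standard errors. One platform symbol was listed for 20380 probe sets, and each gene was read by its brightest probe set over the 6 arrays. The script was tested on simulated data. Promoters came from RefSeq tables of GRCm38.p6. Python 3.11.15 with matplotlib 3.10.9 drew the figures.

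The genes and lists were chosen with earlier results of these data known. The text names every gene of the module with a probe set and up to 4 called genes in each direction per other list. It also names the sensor Atf6 and up to 3 markers per marker list by size of difference. Alternatives were array weights, a trended robust prior, ribosomal protein centring, quantile normalization repeated on the table, a filter on dim probe sets (mean under 6), the mean of a gene's probe sets, other thresholds and leaving out each array. Leaving out saline B and bleomycin D together was added after seeing the data. Read depth has no counterpart on arrays, and the number of arrays limits the precision. Scanner files were not used here, so background and scan batches were not examined. Protein sequences were not used here.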

Additional observations from a re-analysis of the deposited data

How the results depend on the processing

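The number of module genes called higher, 3 by the main setting, was 6 with array weights, 1 with ribosomal protein centring, 0 at an adjusted p under 0.01, 8 under 0.1 and 0 to 2 when one array was left out; the number called lower was 0 to 1 when one array was left out. Chaperones called higher, 2 by the main setting, were 5 with array weights, 0 with ribosomal protein centring, 1 with the mean of all probe sets, 1 with repeated quantile normalization, 1 without saline B and bleomycin D, and 0 to 2 when one array was left out. Genes of the secretory machinery called higher were 2 with the mean of all probe sets, 2 without B and D and 0 to 1 when one array was left out. With the mean of all probe sets 1 stress gene, Edem1, was called higher (0.85; limma, adjusted p = 0.00866), and 0 to 1 stress genes were called lower when one array was left out. Other ER genes called higher, 1 by the main setting, were 5 with array weights, 2 with the dim filter, 2 with the mean of all probe sets, 2 with the trended prior and 0 to 2 when one array was left out. The module median was 0.13 with ribosomal protein centring, and that of the secretory machinery 0.13 with that centring and 0.16 with repeated quantile normalization. The secretory minus stress gene gap was 0.17 with array weights and 0.028 with chaperones among the stress genes. Ribosomal protein centring moved the median of all genes from -0.04 to -0.15 and their calls from 458 higher and 236 lower to 321 and 326; repeated quantile normalization gave 409 and 313.

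Differences near 0 changed sign, none of them past the threshold. With the mean of all probe sets this held for Dnajc3 (0.089), Kdelr2 (0.031), Rpn1 (0.10), Dad1 (0.058) and Xbp1 (0.057). With ribosomal protein centring it held for Hyou1 (-0.041), Sec61a1 (-0.064) and Sec23b (-0.054), and with repeated quantile normalization for Sec61a1 (-0.052) and Sec23b (-0.0093). Array weights turned Ddit3 (0.065), Xbp1 (0.0078) and Syvn1 (0.065), and leaving out B and D turned Sec61a1 (-0.021), Sec23b (-0.061), Ddit3 (0.035) and Xbp1 (0.011). Leaving out one array gave ranges that crossed 0 for Canx (-0.23 to 0.63), Dnajc3 (-0.29 to 0.023), Hyou1 (-0.10 to 0.31), Sec61a1 (-0.029 to 0.11), Sec23b (-0.051 to 0.11), Rpn1 (-0.22 to 0.035), Dad1 (-0.091 to 0.048), Ddit3 (-0.28 to 0.082), Xbp1 (-0.11 to 0.018), Eif2ak3 (-0.042 to 0.30) and Syvn1 (-0.18 to 0.059). Of genes whose sign held, leaving out one array moved by over 1.5 times Pdia3 (0.41 to 1.08), Ddost (0.036 to 0.42), Sec11c (0.033 to 0.31), Sec61b (0.18 to 0.44), Sec22b (0.22 to 0.46), Spcs2 (0.14 to 0.29), Ssr3 (0.097 to 0.29), Sel1l (0.10 to 0.32), Ssr1 (-0.22 to -0.012), Kdelr2 (-0.35 to -0.036) and Atf4 (-0.27 to -0.12). The cause of these changes was not tested. No paired analysis was possible because the groups share no replicate numbers.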
